A study of Mus musculus with 9 samples.

Results

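MHC class I antigen presentation was followed through 10 mouse genes in cultured cells of embryonic heart ventricles after knockdown of a DNA methyltransferase. The genes were H2-K1, H2-D1, H2-T23, B2m, Tap1, Tap2, Tapbp, Psmb8, Psmb9 and Nlrc5. They were found by gene symbol among the 43629 genes of the count tables, with no expression value used, and each symbol matched 1 Ensembl gene. All 10 were among the 16561 genes that passed the filter on low counts. The cells came from outbred CD-1 embryos at embryonic day 13.5, with the ventricles of a litter pooled, and they grew for 48 h before transfection. The 3 groups received a pool of 4 siRNAs to Dnmt3a (DNMT3a siRNA), a pool of 4 siRNAs to Dnmt3b (DNMT3b siRNA) or AllStars control siRNA (negative siRNA), each at 0.012 pmol with the same lipid reagent. Cells were harvested 72 h later, and those positive for VCAM1, a surface adhesion protein of embryonic cardiomyocytes, were enriched on magnetic beads before RNA extraction. Each group had 3 libraries, numbered 1 to 3. The labels do not say that the libraries of a group were separate litters or cultures, so a p-value measures only the spread between these libraries, which may be technical.

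MHC class I molecules show short peptides from inside a cell to CD8 T cells and natural killer cells. The heavy chains H2-K1 and H2-D1 are the classical molecules of the mouse, H2-T23 encodes Qa-1, a nonclassical heavy chain that engages NKG2A receptors, and B2m encodes the light chain that all of them need. Peptides are cut by the proteasome, for which Psmb8 and Psmb9 are interferon-inducible catalytic subunits, carried into the endoplasmic reticulum by the transporter of Tap1 and Tap2, and loaded with the help of tapasin (Tapbp). NLRC5 is the transactivator that works with RFX, CREB/ATF1 and NF-Y factors at class I promoters. Heart muscle cells are known for low class I levels that interferon raises, and DNA methylation is among the marks that can silence these promoters.

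On GRCm38 (GENCODE M21), 8 of the members lie on chromosome 17. From left to right they are Tapbp (ENSMUSG00000024308, chr17:33915899-33929292, plus strand), H2-K1 (ENSMUSG00000061232, chr17:33996017-34000347, minus strand), Psmb9 (ENSMUSG00000096727, chr17:34181987-34187764, minus strand), Tap1 (ENSMUSG00000037321, chr17:34187553-34197225, plus strand), Psmb8 (ENSMUSG00000024338, chr17:34197721-34201454, plus strand) and Tap2 (ENSMUSG00000024339, chr17:34203527-34216321, plus strand). H2-D1 (ENSMUSG00000073411, chr17:35262730-35267499, plus strand) and H2-T23 (ENSMUSG00000067212, chr17:36029773-36032855, minus strand) follow. B2m (ENSMUSG00000060802, chr2:122147686-122153083, plus strand) and Nlrc5 (ENSMUSG00000074151, chr8:94434356-94527272, plus strand) lie outside the complex.

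Promoter sequence of 8 of the 10 members was at hand from RefSeq (GRCm38.p6), as windows of 250 bases before to 50 bases after each start. Tap2 and Nlrc5 had no window. The stretches printed are the 180 bases before the start of the 3 heavy chain genes and B2m, and the 225 bases between the opposed starts of Psmb9 and Tap1, because these hold the matches of those genes to the short motifs searched, except for a further CRE core of B2m after its start. Capitals mark an ISRE-like word (GAAANNGAA), a kappaB-like word (GGGNNTTCC), a CCAAT box (CCAAT) or a CRE core (TGACG), on either strand. A GAS-like word (TTCNNNGAA) was searched too.
H2-K1, chr17:34000334-34000513, minus strand: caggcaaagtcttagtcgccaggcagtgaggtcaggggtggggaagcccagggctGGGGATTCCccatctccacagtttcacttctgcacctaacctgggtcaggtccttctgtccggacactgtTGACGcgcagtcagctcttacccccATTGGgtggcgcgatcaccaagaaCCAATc
H2-D1, chr17:35262914-35263093, plus strand: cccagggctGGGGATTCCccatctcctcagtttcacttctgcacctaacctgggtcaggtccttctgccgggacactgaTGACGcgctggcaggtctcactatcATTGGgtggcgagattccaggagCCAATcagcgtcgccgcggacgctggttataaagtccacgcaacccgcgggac
H2-T23, chr17:36032702-36032881, minus strand: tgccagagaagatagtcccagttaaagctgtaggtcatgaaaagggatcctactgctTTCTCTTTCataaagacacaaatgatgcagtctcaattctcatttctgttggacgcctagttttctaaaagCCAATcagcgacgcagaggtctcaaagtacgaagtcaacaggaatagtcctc
B2m, chr2:122147507-122147686, plus strand: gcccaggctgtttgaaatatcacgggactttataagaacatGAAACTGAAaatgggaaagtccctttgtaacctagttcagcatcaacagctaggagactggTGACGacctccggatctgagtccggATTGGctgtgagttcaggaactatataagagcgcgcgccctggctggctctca
Psmb9 to Tap1, chr17:34187331-34187555, plus strand: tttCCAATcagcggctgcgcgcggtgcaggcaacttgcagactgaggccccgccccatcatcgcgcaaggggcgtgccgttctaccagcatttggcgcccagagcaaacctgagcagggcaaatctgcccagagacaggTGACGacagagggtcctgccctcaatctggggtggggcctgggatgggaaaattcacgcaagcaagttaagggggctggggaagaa

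H2-K1 and H2-D1 held the same order of words, with the kappaB-like word farthest from the start, then the CRE core and a pair of CCAAT boxes. H2-T23 held an ISRE-like word and a CCAAT box but no match to the CRE core or the kappaB-like word. Of the 8 members with a window, 7 held CCAAT, which 37.4% of all 32851 windows also held. The CRE core was in 5 members and in 20.8% of all windows. The ISRE-like word was in B2m and H2-T23 and in 8.56% of windows, the kappaB-like word in H2-K1 and H2-D1 and in 5.82%, and the GAS-like word in Psmb8 alone and in 8.3%. A match is a description of these letters and not a measured site. Only exact matches were counted, so a gene listed without a word may hold a near match. The H2-D1 stretch holds ctcagtttc, which differs from the ISRE-like word on the other strand (TTCNNTTTC) in its first base alone. The H2-K1 stretch holds cacagtttc at the same place. The windows of Psmb9 and Tap1 shared 275 bases, so they are not separate. CpG dinucleotides, the bases that DNMT3A and DNMT3B methylate, numbered 5 in the H2-T23 window and 11 to 19 in those of the other 7 members, against a median of 7 over all windows. No methylation level was measured in the files used here.

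The heavy chain genes also share exon sequence, which matters because reads that matched several places were not counted in any gene. The longest run of exon 4 of H2-K1 that H2-D1 also carries and the longest that H2-T23 also carries lie side by side on the minus strand of GRCm38 (GENCODE M21), in the exon of the membrane-near domain, and are printed without capitals because the whole run is shared.
H2-K1 and H2-D1, chr17:33997343-33997433, minus strand: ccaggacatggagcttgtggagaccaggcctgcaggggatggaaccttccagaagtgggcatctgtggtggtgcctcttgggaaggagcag
H2-K1 and H2-T23, chr17:33997435-33997515, minus strand: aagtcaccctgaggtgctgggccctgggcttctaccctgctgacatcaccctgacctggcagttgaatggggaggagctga

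Of all 50-base words in the annotated transcripts, 9.63% for H2-K1, 12.8% for H2-D1 and 14.5% for H2-T23 also occurred in another gene elsewhere in the genome. The same share was 0% for B2m and at most 1.54% for the 6 others, whose further shared words lay in genes that overlap them, among them Gm19412 at Tapbp, Gm15821 at Tap2 and Gm20496 at Psmb8. Tap1 and Psmb9 overlap head to head on opposite strands, and the strand setting of the counting is not given in the sources used here, so reads of their shared first bases cannot be told apart. Reads lying wholly within such words could not be placed in 1 gene. CD-1 is outbred and the H2 genes are highly polymorphic, and loss of reads from alleles unlike the GRCm38 genome was not tested.

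Between 27852412 and 35896018 reads were counted in genes per library. Alignments that were not unique made up 36.6% to 40.1% of each table's total with DNMT3a siRNA, 41.5% to 42.5% with DNMT3b siRNA and 41.3% to 42.5% with negative siRNA, and their part in the H2 values was not tested. Levels are TMM-scaled CPM, each library's reads in a gene relative to its scaled total. Dnmt3a, the target of the first siRNA pool, had 40.3 to 52.9 CPM with DNMT3a siRNA against 232 to 275 CPM with negative siRNA, and Dnmt3b had 1.17 to 2.43 CPM with DNMT3b siRNA against 4.26 to 4.33 CPM with negative siRNA. Both fell, Dnmt3a with a log2 fold change of -2.48 ± 0.11 (edgeR adjusted p = 3.42e-06) and Dnmt3b with -1.34 ± 0.23 (adjusted p = 0.00816, and 0.0538 without DNMT3b library 3). All 16 cardiomyocyte markers averaged at least 1 CPM, and fibroblast markers, led by collagens, were abundant as well. Of the 16, edgeR called 13 higher with DNMT3a siRNA and 14 higher with DNMT3b siRNA than with negative siRNA. Summed over 16 genes, cardiomyocyte markers reached 5590 to 7530 CPM with DNMT3a siRNA, 7330 to 8790 CPM with DNMT3b siRNA and 2500 to 3320 CPM with negative siRNA. Vcam1, the sort marker, had 212 to 258 CPM with DNMT3a siRNA, 268 to 306 CPM with DNMT3b siRNA and 276 to 361 CPM with negative siRNA, and was not called (edgeR adjusted p = 0.051 and 0.632 against negative siRNA). In bulk RNA, fewer cells of a type and less RNA per cell cannot be told apart.

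Per kilobase of exon, the light chain and classical heavy chains stood highest, tapasin beside them, and the transporter, the inducible proteasome subunits and the transactivator far lower. In negative siRNA cultures B2m had 713 ± 229 CPM per kilobase (SD, n = 3 here and below), H2-D1 103 ± 61.7, H2-K1 57.6 ± 32.7 and Tapbp 56.2 ± 15.6. The transporter genes were lower, at 8.0 ± 3.48 for Tap1 and 3.97 ± 1.65 for Tap2. Psmb8 had 2.15 ± 1.2, H2-T23 1.58 ± 0.787, Nlrc5 0.693 ± 0.57 and Psmb9 0.607 ± 0.377 CPM per kilobase. The constitutive subunit that Psmb8 replaces, Psmb5, stood at 14.9 ± 1.52, and Psmb6, which Psmb9 replaces, at 27.0 ± 3.13. The lengths merge the exons of all annotated transcripts, 3381 bases for Psmb8 and 3660 for Psmb9 but 899 for Psmb5 and 1872 for Psmb6. Without division by length, these controls had 7.25 ± 4.07 CPM of Psmb8, 13.4 ± 1.37 of Psmb5, 2.22 ± 1.38 of Psmb9 and 50.6 ± 5.85 of Psmb6. The order per kilobase thus depends on the annotated lengths. Among neighbours in this order, the control ranges separated only B2m from H2-D1 and Tapbp from Tap1. Within single libraries H2-D1 nevertheless exceeded H2-K1 in 9 of 9, by 1.21 to 2.12 times, Tap1 exceeded Tap2 in 9 of 9, by 1.58 to 2.56 times, and Tap2 exceeded Psmb8 in 9 of 9. H2-K1 against Tapbp (higher in 3 of 9), Psmb8 against H2-T23 (4 of 9) and Nlrc5 against Psmb9 (4 of 9) had no steady order.

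With DNMT3a siRNA, no member was called against negative siRNA. The heavy chain H2-K1 had 109, 76.7 and 184 CPM in DNMT3a libraries 1 to 3, against 120, 108 and 280 CPM in control libraries 1 to 3. H2-D1 had 162, 129 and 342 CPM with DNMT3a siRNA and 198, 151 and 447 CPM with negative siRNA. In each group library 3 stood far above the other libraries, and the groups overlapped over most of their range. B2m, the light chain, had 542, 350 and 703 CPM with DNMT3a siRNA and 651, 400 and 788 CPM with negative siRNA. The log2 fold changes were -0.46 ± 0.46 for H2-K1, -0.33 ± 0.55 for H2-D1 and -0.21 ± 0.35 for B2m (estimate ± SE), with adjusted p of 0.61, 0.779 and 0.781 in edgeR's quasi-likelihood test with Benjamini-Hochberg adjustment over all genes. The 95% interval for H2-K1 ran from -1.53 to 0.61, so a fall or a rise within that range remains compatible with these values.

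**Figure D1:**
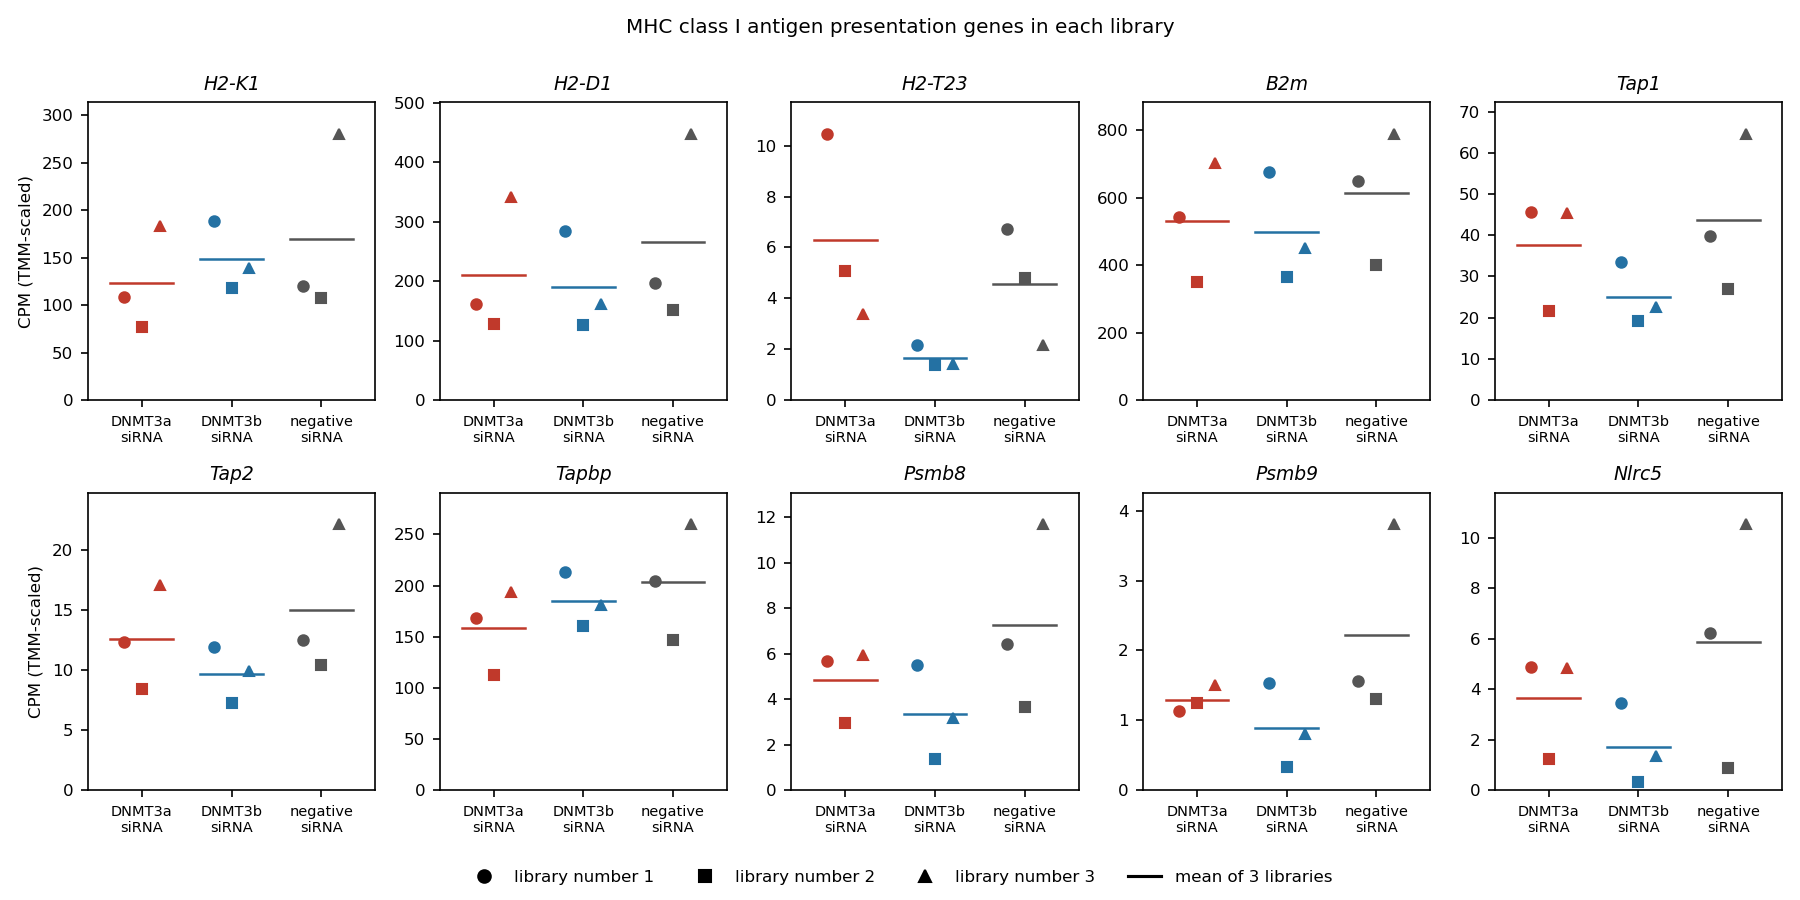
TMM-scaled CPM (vertical axes, each from 0) of the 10 MHC class I genes in the 9 libraries, with DNMT3a siRNA, DNMT3b siRNA and negative siRNA from left to right, circles, squares and triangles for library numbers 1, 2 and 3, and lines for the mean of 3 libraries. In negative siRNA cultures library 2 was the lowest for 9 of the 10 genes, and H2-T23 alone had library 3 lowest.

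Peptide supply showed the same picture. Tap1 had 45.8, 21.7 and 45.3 CPM with DNMT3a siRNA and 39.9, 27.0 and 64.5 CPM with negative siRNA. Tap2 averaged 12.6 ± 4.31 CPM with DNMT3a siRNA and 15 ± 6.24 CPM with negative siRNA. Tapbp, the bridge between transporter and heavy chain, had 168, 113 and 194 CPM with DNMT3a siRNA and 205, 147 and 260 CPM with negative siRNA. Its log2 fold change of -0.36 ± 0.24 had an edgeR adjusted p of 0.414, and its standard error was the smallest among the members. Psmb8 averaged 4.84 ± 1.66 CPM with DNMT3a siRNA and 7.25 ± 4.07 CPM with negative siRNA, and Psmb9 averaged 1.29 ± 0.190 CPM with DNMT3a siRNA and 2.22 ± 1.38 CPM with negative siRNA. Nlrc5, the transactivator, had 4.87, 1.21 and 4.84 CPM with DNMT3a siRNA and 6.24, 0.877 and 10.54 CPM with negative siRNA, so that the controls alone spanned most of the values seen. H2-T23 had 10.45, 5.06 and 3.40 CPM with DNMT3a siRNA and 6.71, 4.81 and 2.18 CPM with negative siRNA, the only member with an estimate above 0.

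By edgeR's test 0 of the 10 members were called (adjusted p under 0.05) where 10.1% of all tested genes were, and 0 had an unadjusted p under 0.05 where 24.9% of all genes did. DESeq2 and limma-voom called 0 as well. None had groups that did not overlap, against 26.7% of all genes. The median log2 fold change of the members was -0.35, against 0.02 over all genes, with 9 of 10 below 0. Libraries of DNMT3a siRNA and negative siRNA with the same number deviated together across genes and are read as pairs. Within pairs 7 members were lower in all 3 pairs and H2-T23 was higher in all 3. The share of all genes with such an order is not given here, and the members other than H2-T23 varied together over the libraries. These counts are therefore a description and not read as a change. With the number as a block, 0 members were called where 14.3% of all genes were. Tapbp came nearest, with an adjusted p of 0.0682 in that block fit, against 0.0682 to 0.786 over all alternatives. Control library 3 carried much of the median. Without it the median was 0.06, and the estimates of H2-K1, H2-D1, B2m, Tap1, Tap2 and Nlrc5 turned positive.

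With DNMT3b siRNA, all 10 estimates against negative siRNA were below 0, and again none passed the test. H2-K1 had 189, 119 and 139 CPM in DNMT3b libraries 1 to 3, against 120, 108 and 280 CPM with negative siRNA, and H2-D1 had 284, 126 and 162 CPM with DNMT3b siRNA, against 198, 151 and 447 CPM with negative siRNA. B2m had 678, 366 and 451 CPM with DNMT3b siRNA and 651, 400 and 788 CPM with negative siRNA. Here library 1 was the highest of its group for all 10 members. The estimates for H2-K1, H2-D1, B2m and Tapbp were smaller than their standard errors, at -0.18 ± 0.46, -0.48 ± 0.55, -0.30 ± 0.35 and -0.14 ± 0.24. Their edgeR adjusted p were 0.864, 0.679, 0.675 and 0.795. The 95% interval for H2-D1 ran from -1.78 to 0.83, so a fall or a rise within that range remains compatible with these values.

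The estimates farthest from 0 belonged to the least abundant members. Nlrc5 had 3.47, 0.323 and 1.33 CPM with DNMT3b siRNA and 6.24, 0.877 and 10.54 CPM with negative siRNA, with a log2 fold change of -1.77 ± 1.04 and an edgeR adjusted p of 0.378. H2-T23 had 2.18, 1.39 and 1.44 CPM with DNMT3b siRNA and 6.71, 4.81 and 2.18 CPM with negative siRNA. Its log2 fold change was -1.46 ± 0.51 with an edgeR adjusted p of 0.136, and DNMT3b library 1 met control library 3. Psmb9 had 1.54, 0.323 and 0.806 CPM with DNMT3b siRNA and 1.56, 1.30 and 3.81 CPM with negative siRNA, an estimate of -1.30 ± 0.53. Psmb8 averaged 3.35 ± 2.08 CPM with DNMT3b siRNA and 7.25 ± 4.07 CPM with negative siRNA. Tap1 averaged 25.1 ± 7.42 CPM with DNMT3b siRNA and 43.8 ± 19.0 CPM with negative siRNA, and Tap2 9.68 ± 2.33 CPM with DNMT3b siRNA and 15 ± 6.24 CPM with negative siRNA. The transporter estimates were -0.80 ± 0.40 and -0.63 ± 0.34.

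By edgeR's test 0 of 10 members were called against negative siRNA, where 5.64% of all genes were, and limma-voom called 0. H2-T23 and Psmb9 had an unadjusted p under 0.05, at 0.0183 and 0.034, as did 21.5% of all genes, and DESeq2 called H2-T23 lower with an adjusted p of 0.0147, against a range of 0.00507 to 0.381 over all its alternatives. No member's groups were apart, against 26.1% of all genes. The median log2 fold change of the members was -0.71, against 0.00 over all genes. Without control library 3 it was -0.33, and the estimates of H2-K1, H2-D1 and Tapbp turned positive. Without that library the estimates of B2m, Tap1 and Tap2 were -0.08, -0.42 and -0.25, and those of Psmb8, Psmb9 and Nlrc5 were -0.59, -0.68 and -1.06. Without DNMT3b library 1 these last 3 were -1.68, -1.97 and -2.84, and without DNMT3b library 2 they were -0.73, -0.90 and -1.28.

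**Figure D2:**
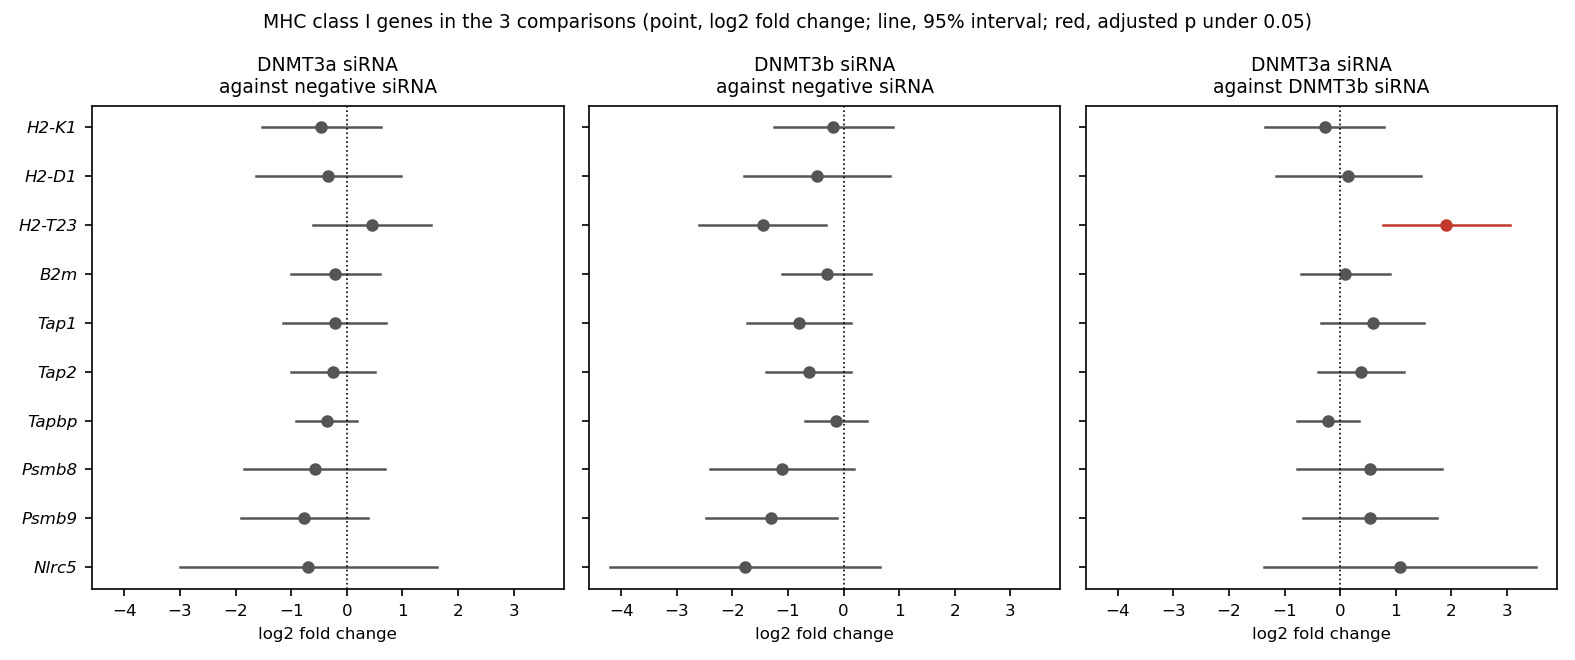
Log2 fold change (horizontal axis) of the 10 MHC class I genes in the comparisons of DNMT3a siRNA against negative siRNA, DNMT3b siRNA against negative siRNA and DNMT3a siRNA against DNMT3b siRNA. Points are edgeR estimates and lines their 95% intervals, and red marks an adjusted p under 0.05, which H2-T23 alone reached, at 1.91 between the knockdowns.

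Between the knockdowns, H2-T23 was the member that differed. It had 10.45, 5.06 and 3.40 CPM with DNMT3a siRNA and 2.18, 1.39 and 1.44 CPM with DNMT3b siRNA, from counts of 104 to 322 reads with DNMT3a siRNA and 41 to 71 reads with DNMT3b siRNA. All 3 DNMT3a libraries lay above all 3 DNMT3b libraries, a mean of 6.30 ± 3.69 CPM with DNMT3a siRNA and 1.67 ± 0.444 CPM with DNMT3b siRNA. The difference was 1.91 ± 0.50 on the log2 scale, 3.76-fold, with an edgeR adjusted p of 0.0476. Of the 10 members, 1 was called where 9.55% of all genes were, and 1 had groups that did not overlap where 32.3% of all genes did, shares near the background. The call was lost in 9 of 18 alternatives, with adjusted p from 0.000414 to 0.182. It was lost with limma-voom (0.1), without a filter (0.177), without the libraries numbered 2 (0.182), and without any of DNMT3a library 1 (0.133), DNMT3a library 2 (0.0621), DNMT3b library 1 (0.084), DNMT3b library 2 (0.168), DNMT3b library 3 (0.172) or control library 2 (0.0672). The estimate stayed between 1.34 and 2.21 when a library was left out. The other 9 members had estimates from -0.27 for H2-K1 to 1.08 for Nlrc5, none called, and H2-K1 and Tapbp were the ones below 0. Both knockdowns were set against the same control libraries, so the direct comparison, not the pair of control comparisons, carries this difference.

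H2-T23 stood apart from the other members in its order over libraries as well. In DNMT3a and in control cultures library 1 was its highest and library 3 its lowest, where library 3 was the highest for 7 members with DNMT3a siRNA and for 9 with negative siRNA. Over the 9 libraries, which share groups and numbers, its log2 CPM had a Pearson r of 0.06 with the mean of the other members, whereas each of the other 9 had an r between 0.71 and 0.96. Some other heavy chain genes, chosen after their values were seen, were highest in library 1 too. H2-Q2 had 7.01, 2.30 and 1.11 CPM with DNMT3a siRNA, 0.369, 0.129 and 0.105 CPM with DNMT3b siRNA, and 6.21, 2.24 and 0.333 CPM with negative siRNA. H2-T22 had 11.2, 7.21 and 6.51 CPM with DNMT3a siRNA, 7.004, 4.754 and 4.939 CPM with DNMT3b siRNA, and 12.3, 8.06 and 9.06 CPM with negative siRNA. H2-T24 had 6.33, 2.39 and 3.335 CPM with DNMT3a siRNA, 2.09, 2.07 and 1.37 CPM with DNMT3b siRNA, and 6.71, 2.70 and 4.47 CPM with negative siRNA. The DNMT3b and control values of H2-T22 and of H2-T24 did not overlap, as was so for 26.1% of all tested genes, while those of H2-Q2 did. Between the knockdowns the values of H2-Q2 and of H2-T24 did not overlap, as was so for 32.3% of all tested genes, while those of H2-T22 did. H2-Q4, by contrast, had its libraries in the order of H2-D1 within each group.

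**Figure D3:**
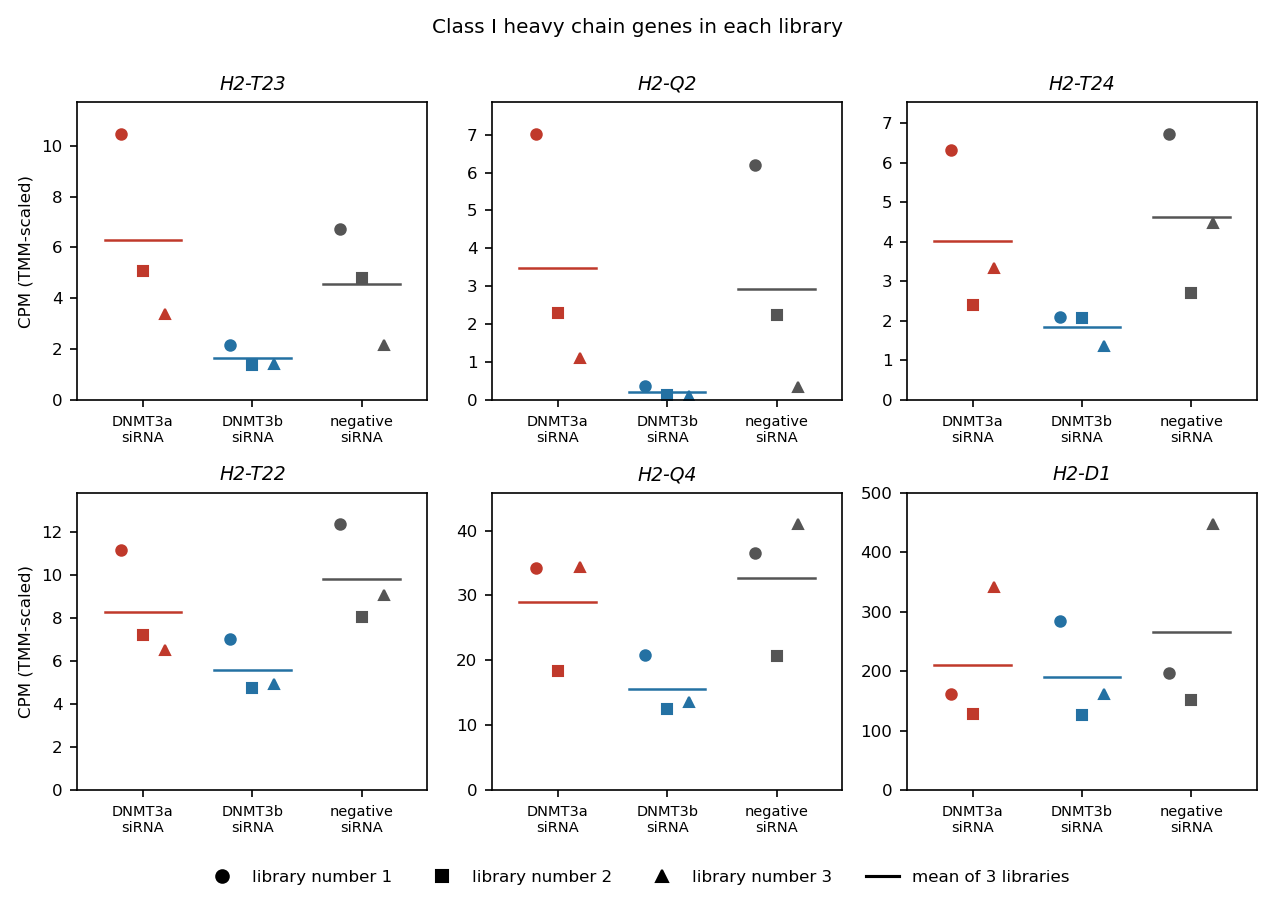
TMM-scaled CPM (vertical axes, each from 0) of H2-T23, of H2-Q2, H2-T24, H2-T22 and H2-Q4 as further class I heavy chain genes, and of H2-D1, by siRNA group, with symbols for library number and lines for the mean of 3 libraries. H2-T23 and H2-Q2 were highest in library 1 and lowest in library 3 with DNMT3a siRNA and with negative siRNA, and H2-D1 was highest in library 3.

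None of these passed the test. Of 20 other class I heavy chain genes listed, 15 passed the filter, and edgeR called 0 in each of the 3 comparisons. Their median log2 fold change was -0.18 for DNMT3a siRNA against negative siRNA, -0.72 for DNMT3b siRNA against negative siRNA and 0.57 for DNMT3a siRNA against DNMT3b siRNA. With unadjusted p under 0.05 there were 1, 7 and 5 of the 15 genes in these comparisons, where 24.9%, 21.5% and 25.3% of all tested genes had one. DESeq2 called 0, 4 lower and 3 higher, and limma-voom called 0 in each. Over all genes DESeq2 called 2303 and 1715 in the 2 comparisons against negative siRNA, in either direction. Its count over all genes between the knockdowns is not given here, so the 3 cannot be set against a background share. Without the libraries numbered 2, edgeR called 2 lower with DNMT3b siRNA than with negative siRNA, where 1209 of all genes were called in either direction. It called 2 higher with DNMT3a siRNA than with DNMT3b siRNA, with no count over all genes given here, so these cannot be set against a background share. H2-Q2 had log2 fold changes of -3.83 and 4.06 in those comparisons, with edgeR adjusted p of 0.122 and 0.0857, and as few as 3 reads in a library.

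Among libraries of a group, most members, H2-T23 aside, were lowest in the library where the interferon-stimulated genes were lowest. Library 2 was the lowest of its group for 8 of 10 members with DNMT3a siRNA, for 10 of 10 with DNMT3b siRNA and for 9 of 10 with negative siRNA, where it was the lowest for 35.4%, 30.4% and 36.5% of all tested genes. For the 40 interferon-stimulated genes listed it was the lowest for 40, 38 and 39. The highest library matched less closely with DNMT3a siRNA, where library 3 was the highest for 7 of 10 members and 16 of 40 interferon-stimulated genes, and library 1 for 3 members and 24 interferon-stimulated genes. With DNMT3b siRNA library 1 was the highest for all 10 members and all 40 of these genes, and with negative siRNA library 3 was the highest for 9 members and 37 of them. Ifit1, an antiviral RNA-binding protein, had 123, 25.0 and 98.1 CPM with DNMT3a siRNA, 63.1, 12.3 and 23.9 CPM with DNMT3b siRNA, and 110, 22.5 and 124 CPM with negative siRNA. Irf7, a transcription factor of the type I interferon response, had 57.3, 19.1 and 58.7 CPM with DNMT3a siRNA, 33.7, 11.2 and 16.1 CPM with DNMT3b siRNA, and 66.7, 21.9 and 107 CPM with negative siRNA. Ifit1 and Irf7 were chosen after their values were seen. The summed level of the 40 genes ran from 1260 to 3140 CPM with DNMT3a siRNA, from 1110 to 2290 CPM with DNMT3b siRNA and from 1460 to 3730 CPM with negative siRNA, beside summed member levels of 709 to 1500, 800 to 1420 and 854 to 1890 CPM. The part of the interferon-stimulated state of a library in the members' values was not tested.

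**Figure D4:**
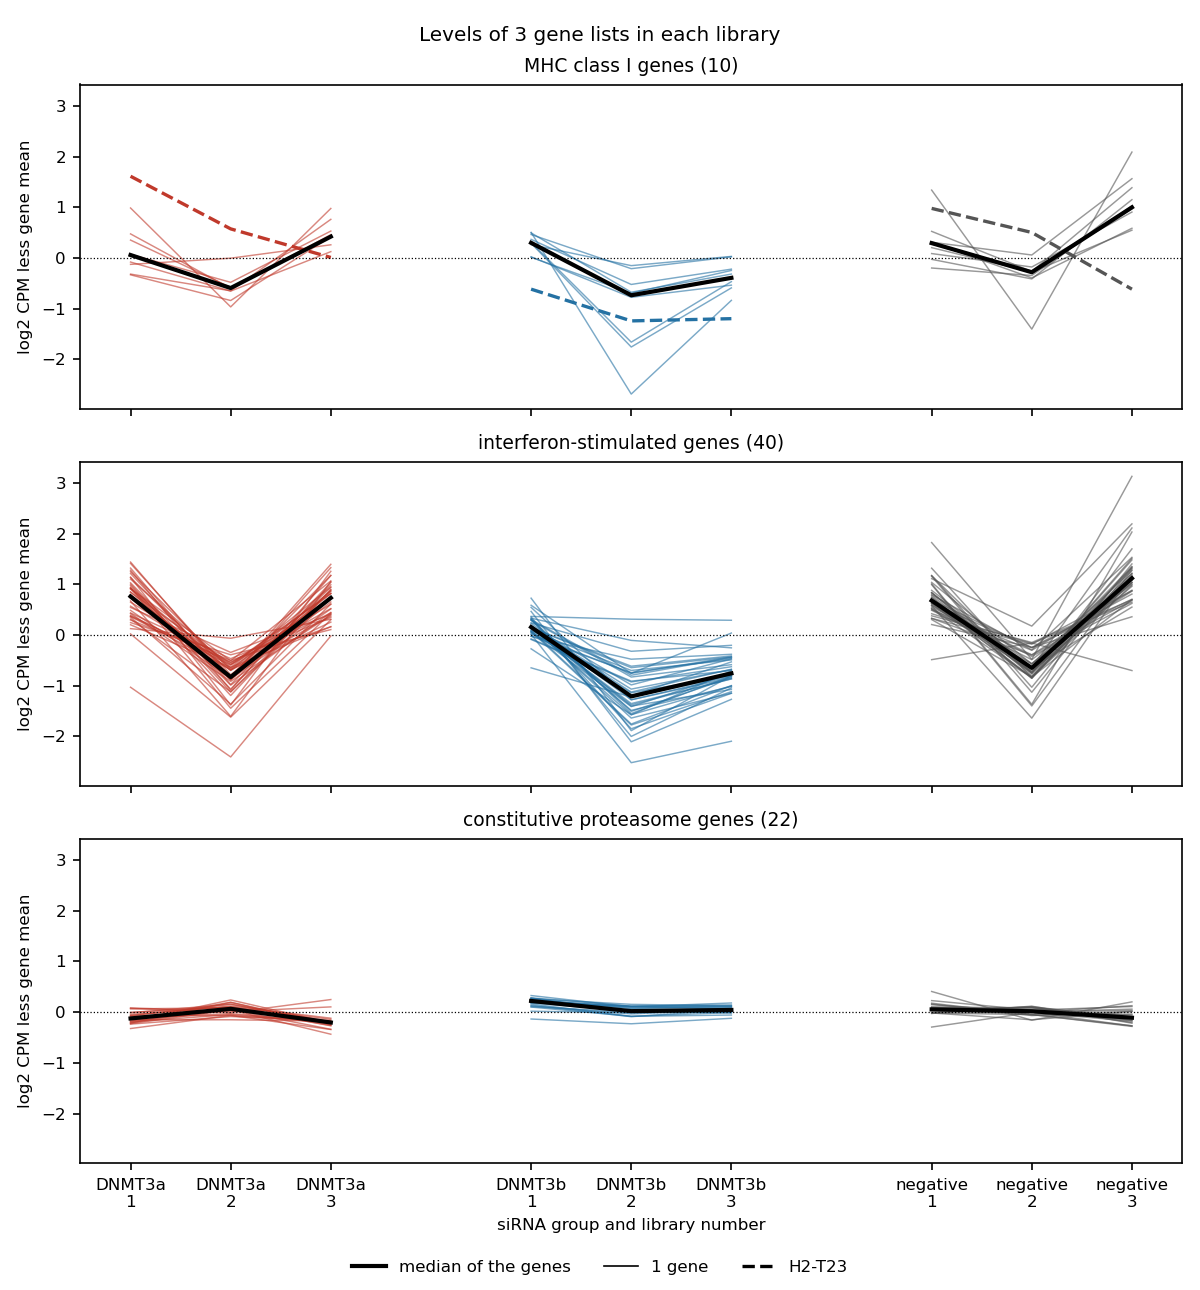
Log2 CPM of each gene less its mean over the 9 libraries (vertical axis) by siRNA group and library number, for 10 MHC class I, 40 interferon-stimulated and 22 constitutive proteasome genes, with thin lines for genes, thick black lines for their median and a dashed line for H2-T23. Library 2 was the lowest for 8, 10 and 9 of the 10 class I genes in the DNMT3a, DNMT3b and negative siRNA groups.

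Among 10769 protein-coding candidates outside the pathway (log2 CPM averaging 2 or more), the 5 most like the members' mean profile were Oas1a (Pearson r = 0.98 over 9 libraries), Trim44 (0.98), Lgals3bp (0.97), Dennd6a (0.97) and Parp14 (0.96). Oas1a, Lgals3bp and Parp14 stood in the interferon-stimulated list. Oas1a, an antiviral oligoadenylate synthetase, had 7.07, 2.57 and 9.48 CPM with DNMT3a siRNA, 9.43, 1.49 and 3.22 CPM with DNMT3b siRNA, and 9.89, 4.61 and 16.5 CPM with negative siRNA. Trim44 and Dennd6a followed the same order over a far narrower range, 176 to 204 CPM and 40.0 to 48.0 CPM over all libraries. These correlations describe 9 libraries that share groups and numbers.

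The spread between libraries of a group was wide for the members. The pooled within-group SD of log2 CPM had a median of 0.65 over the members, 0.91 over the interferon-stimulated genes and 0.18 over all tested genes. It was 0.36 for Tapbp, larger than for 77.5% of tested genes, and 1.55 for Nlrc5, larger than for 99.9%. The distance between the highest and the lowest group mean was under this SD for H2-K1, H2-D1 and B2m, at 0.41, 0.40 and 0.29 on the log2 scale, and well over it for H2-T23, at 1.75 against an SD of 0.70. The median SE of a member's log2 fold change was 0.46 for DNMT3a siRNA against negative siRNA and 0.48 for the other comparisons, against 0.15 over all genes.

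**Figure D5:**
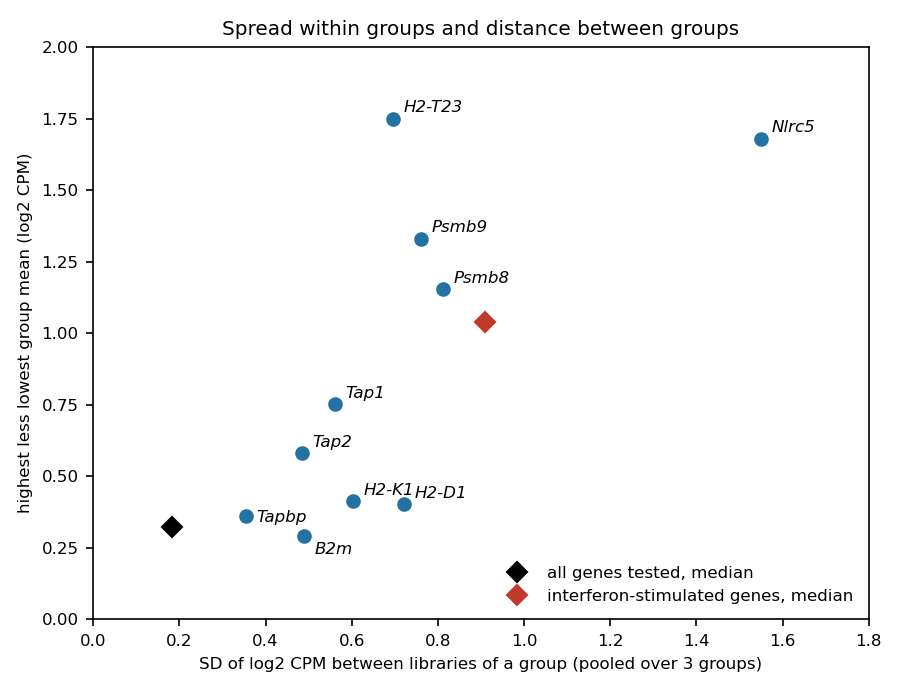
Distance between the highest and lowest group mean (vertical axis, log2 CPM) against the SD of log2 CPM between libraries of a group, pooled over the 3 groups (horizontal axis), for the 10 MHC class I genes (circles) and the medians of all tested genes and of the interferon-stimulated genes (diamonds). Nlrc5 had the widest spread, 1.55, and H2-T23 the largest distance, 1.75.

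Without a block, few genes of the interferon lists were called. Among the 40 interferon-stimulated genes, edgeR called Ifi27 higher (log2 fold change 0.56, adjusted p = 0.0247) and Oas3 lower (-2.45, adjusted p = 0.0457) with DNMT3a siRNA, and Ifi27 higher (0.75, adjusted p = 0.00937) with DNMT3b siRNA. Alternatives lost the calls of DNMT3a siRNA, up to an adjusted p of 0.0901 for Ifi27 and 0.147 for Oas3, and that of Ifi27 with DNMT3b siRNA reached 0.0501 without DNMT3b library 3. Ifi27 is an interferon-inducible membrane protein and Oas3 an oligoadenylate synthetase. Oas3 was at very low levels, 0.260, 0.0606 and 0.588 CPM with DNMT3a siRNA and 1.37, 0.682 and 2.96 CPM with negative siRNA. Its fold change thus rests on few reads. Ifi27 had 47.8, 41.9 and 54.3 CPM with DNMT3a siRNA, 56.5, 54.4 and 53.6 CPM with DNMT3b siRNA, and 31.3, 39.3 and 26.9 CPM with negative siRNA, an order unlike the rest of the list. The list's median log2 fold change was -0.18 with DNMT3a siRNA and -1.05 with DNMT3b siRNA, with 39 of 40 below 0 for DNMT3b siRNA, and 0.86 for DNMT3a siRNA against DNMT3b siRNA, where 0 were called and 1 had an unadjusted p under 0.05. DESeq2 called 1 and limma-voom 0 there. Without the libraries numbered 2, 11 of the 40 were called lower and 1 higher with DNMT3b siRNA than with negative siRNA. Over all genes, 1209 were called in that setting and comparison, in either direction. In the same setting 7 of the 40 were called higher with DNMT3a siRNA than with DNMT3b siRNA. No count over all genes is given here for it, so the 7 cannot be set against a background share. With the number as a block, which pairs the DNMT3a and control libraries, 3 of the 40 were called lower and 1 higher with DNMT3a siRNA. In that fit 14.3% of all genes were called.

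The 3 interferon genes listed were at the limit of detection, and other interferon genes were not looked at. Ifng had 0 or 1 read in each library, Ifnb1 at most 2 and Ifna4 at most 6, so all 3 failed the filter, and levels of secreted ligand from cells outside the sort are not in these data. Of 11 tested ligand, receptor and kinase genes, edgeR called Ifnar2, a chain of the type I interferon receptor. It had 17.8, 22.1 and 19.9 CPM with DNMT3a siRNA, 33.1, 35.3 and 34.1 CPM with DNMT3b siRNA, and 31.7, 39.4 and 39.4 CPM with negative siRNA. It was lower with DNMT3a siRNA, with a log2 fold change of -0.89 ± 0.11 against negative siRNA (edgeR adjusted p = 0.000945) and -0.78 ± 0.11 against DNMT3b siRNA (adjusted p = 0.00287), and both calls held in all alternatives. Ifngr1, the ligand-binding chain of the interferon gamma receptor, had 23.9 to 26.3 CPM with DNMT3a siRNA and 29.6 to 30.2 CPM with negative siRNA and was not called (edgeR adjusted p = 0.0682). Ifngr1 was named after its values were seen.

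Of 24 transcription factors and Polycomb genes linked to class I promoters, edgeR called 2 lower with DNMT3a siRNA and 0 with DNMT3b siRNA. Atf1, which binds the CRE element that the H2-K1, H2-D1 and B2m stretches carry as a core word, had 17.3, 16.9 and 17.0 CPM with DNMT3a siRNA, 29.1, 27.5 and 28.8 CPM with DNMT3b siRNA, and 30.2, 27.7 and 28.8 CPM with negative siRNA. Its log2 fold change was -0.76 ± 0.08 against negative siRNA (edgeR adjusted p = 0.000362) and -0.74 ± 0.08 against DNMT3b siRNA (adjusted p = 0.000729), and both calls held in all alternatives. Nfkb1, the p105 and p50 subunit of NF-kappaB, had 55.2 to 56.8 CPM with DNMT3a siRNA and 67.2 to 69.4 CPM with negative siRNA, a log2 fold change of -0.28 ± 0.07 with an edgeR adjusted p of 0.0212, and alternatives gave up to 0.0951. Stat2, Irf1 and Irf9 were among the factors not called, with estimates of -0.16, -0.14 and 0.23 for DNMT3a siRNA and -0.89, 0.02 and -0.42 for DNMT3b siRNA against negative siRNA.

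The general machinery of peptide production and folding held few calls. Of 14 genes of peptide loading and trimming, edgeR called Uggt1, the glucosyltransferase that checks glycoprotein folding and acts on class I molecules. It had 179, 171 and 168 CPM with DNMT3a siRNA, 260, 244 and 236 CPM with DNMT3b siRNA, and 270, 217 and 261 CPM with negative siRNA. The log2 fold change was -0.53 ± 0.09 against negative siRNA (edgeR adjusted p = 0.0052) and -0.52 ± 0.09 against DNMT3b siRNA (adjusted p = 0.0077). The list's median was -0.04 with DNMT3a siRNA and -0.06 with DNMT3b siRNA, with no call for DNMT3b siRNA. Calr and Pdia3, chaperones of the loading complex, had 818 to 935 and 644 to 770 CPM with DNMT3a siRNA and 759 to 911 and 712 to 840 CPM with negative siRNA. Of 22 constitutive proteasome genes, edgeR called Psmc2, an ATPase subunit of the regulatory particle, lower with DNMT3a siRNA than with negative siRNA (-0.37 ± 0.10, adjusted p = 0.0373) and than with DNMT3b siRNA (-0.36 ± 0.10, adjusted p = 0.0417), calls that 7 of 18 alternatives lost in each comparison. The interferon-inducible Psmb10, Psme1 and Psme2 were not called in any comparison, with edgeR estimates from -0.32 to 0.40.

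Class II genes were near the limit of detection. Of 10 genes, 8 averaged under 1 CPM, H2-Aa had at most 1 read in a library, and 4 passed the filter. H2-DMa, a peptide exchange factor, had 3.80, 3.30 and 2.39 CPM with DNMT3a siRNA, 1.505, 1.585 and 1.121 CPM with DNMT3b siRNA, and 3.79, 2.86 and 2.18 CPM with negative siRNA. edgeR called it lower with DNMT3b siRNA than with negative siRNA (-1.07 ± 0.27, adjusted p = 0.0411) and higher with DNMT3a siRNA than with DNMT3b siRNA (1.17 ± 0.27, adjusted p = 0.0221). The alternatives reached an adjusted p of 0.175 and 0.0985, so neither call held throughout.

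Markers of other cells stood beside these values. The 18 macrophage and leukocyte markers, a list of haematopoietic genes, summed to 12.7 to 27.8 CPM with DNMT3a siRNA, 28.7 to 66.1 CPM with DNMT3b siRNA and 31.2 to 88.6 CPM with negative siRNA. None was at 0 in all libraries, and 5 averaged under 1 CPM. All 18 had an estimate below 0 with DNMT3a siRNA against negative siRNA, 3 were called lower (Csf1r, Adgre1 and Mpeg1), and 15 were with the number as a block. Over all genes, 10.1% were called without the block and 14.3% with it. Without the libraries numbered 2, edgeR called 0 of the 18 markers. With DNMT3b siRNA against negative siRNA, and with DNMT3a siRNA against DNMT3b siRNA, edgeR called 0 without a block, where 16 and 18 estimates were below 0. Within each group library 1 had the lowest macrophage sum. All 10 lymphocyte and natural killer markers averaged under 1 CPM. Endothelial markers summed to 174 to 224 CPM with DNMT3a siRNA, 262 to 285 CPM with DNMT3b siRNA and 173 to 238 CPM with negative siRNA. Epicardial markers summed to 1440 to 1900, 1480 to 2050 and 2070 to 2450 CPM, and smooth muscle and pericyte markers to 7730 to 8920, 7900 to 9470 and 5330 to 8080 CPM, in the DNMT3a, DNMT3b and negative siRNA groups. Fibroblast markers summed to 41600 to 44600 CPM with DNMT3a siRNA, 39500 to 46400 CPM with DNMT3b siRNA and 41600 to 60100 CPM with negative siRNA. Beneath these overlapping sums, edgeR called 4 of 12 fibroblast markers lower with DNMT3a siRNA (Dcn, Fbln1, Pdgfra and Tcf21) and 2 lower with DNMT3b siRNA (Dcn and Tcf21) than with negative siRNA. Of 8 erythroid genes 5 were at 0 in all libraries. The part of these cell types in the members' values was not tested.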

How the data were processed

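Poly(A) RNA of 9 libraries, 3 for each siRNA, was sequenced on a NextSeq500 per the labels. The values are raw counts per Ensembl gene that the authors deposited 1 table per library, and per the submitters' processing notes FastQC, TopHat2 and HTSeq were used with mm10/GRCm38. Tool versions, annotation release and strand setting were not given in the sources used here. Beside genes, the 5 summary lines, 49.2% to 56.2% of each table's total, were left out. Symbols came from GENCODE M21 for 42462 of 43629 genes.

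Samples were grouped by the siRNA in their labels. The low-count filter of edgeR (filterByExpr at a minimum count of 10 and a total of 15) kept 16561 genes, which were fitted over all 9 libraries with TMM factors and edgeR 4.0.16's robust quasi-likelihood test in R 4.3.3 (6 residual degrees of freedom, biological coefficient of variation 0.154). P-values were Benjamini-Hochberg adjusted over all tested genes, and 0.05 was the threshold. Log2 CPM used a prior count of 2, and group values are means ± SD. The fit was tested on simulated data. DESeq2 1.42.0, limma-voom 3.58.1, other scalings and filters, the compared groups alone, a replicate block and left-out libraries were the alternatives. At these depths, 27852412 to 35896018 reads in genes, the spread between libraries limited the precision for abundant genes, and counting error also counted for Psmb9 and Nlrc5, which had as few as 10 reads.

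Deviations from group means correlated at 0.434, 0.513 and 0.459 between DNMT3a and control libraries of the same number, so these numbers were read as pairs, from the data alone, as no label explains the numbering. No library pair of a group agreed within sampling noise.

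The text names all 10 members, the siRNA targets, the sort marker, up to 4 called genes with the smallest adjusted p from each pathway list per comparison, and the 5 genes most like the members. Marker lists are given mainly by sums and counts. Genes named outside this rule are said to be so or serve as examples of a list. The members and gene lists were chosen with earlier results of these data known. No explanation for a difference was tested.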

Additional observations from a re-analysis of the deposited data

Results flagged for a closer look

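Both knockdowns were compared with the same controls, and 6 of 143 tested genes of the members and pathway lists (DNA methylation enzymes left out) were called when DNMT3a siRNA was set directly against DNMT3b siRNA in edgeR's test, which marks them as differing between the knockdowns. Over all genes 9.55% were called in that comparison, so the count is no sign of a change particular to these lists. H2-T23 was higher with DNMT3a siRNA by 1.91 on the log2 scale, and H2-DMa by 1.17. Atf1 was lower with DNMT3a siRNA, at -0.74, as were Ifnar2 at -0.78, Uggt1 at -0.52 and Psmc2 at -0.36. The calls of Atf1, Ifnar2 and Uggt1 held under all 18 alternatives, with highest adjusted p of 0.00708, 0.0187 and 0.0376. Those of H2-T23, H2-DMa and Psmc2 were lost under at least 1 alternative, with highest adjusted p of 0.182, 0.0985 and 0.163. The cause of these differences was not tested.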

How the results depend on the processing

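For each comparison, 18 alternatives gave 180 estimates for the 10 members. They kept direction and side of the threshold in 171 of 180 for DNMT3a siRNA against negative siRNA, 173 for DNMT3b siRNA against negative siRNA and 167 for DNMT3a siRNA against DNMT3b siRNA, and turned direction in 9, 3 and 4. Leaving out a library gave log2 fold changes for DNMT3a siRNA against negative siRNA from -0.87 to 0.11 for H2-K1, -0.87 to 0.27 for H2-D1, -0.12 to 0.84 for H2-T23, -0.46 to 0.0157 for B2m, -0.47 to 0.16 for Tap1, -0.53 to 0.13 for Tap2 and -1.20 to 0.0156 for Nlrc5. For DNMT3b siRNA against negative siRNA they were -0.42 to 0.39 for H2-K1, -0.89 to 0.12 for H2-D1 and -0.33 to 0.0717 for Tapbp, and for DNMT3a siRNA against DNMT3b siRNA -0.39 to 0.55 for H2-D1 and -0.16 to 0.38 for B2m. The 1 member called between the knockdowns became 0 with limma-voom, without a filter and without the libraries numbered 2, and 0 to 1 when a library was left out.

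With DNMT3b siRNA against negative siRNA, DESeq2 called 1 member lower and the replicate block 3. The 3 were H2-T23 (-1.38, adjusted p = 0.00507), Psmb8 (-1.13, adjusted p = 0.0382) and Nlrc5 (-1.72, adjusted p = 0.04, each in edgeR). Over all genes DESeq2 called 1715, and the block 1801 of 16561 tested, in either direction. The numbers were not read as pairs there, since same-numbered deviations correlated at 0.212, 0.101 and 0.033, nor between the knockdowns, at 0.161, 0.078 and 0.041. With the block, 17 of 40 interferon-stimulated genes, 5 of 15 other heavy chains and 4 of 18 macrophage markers were called lower with DNMT3b siRNA than with negative siRNA. With DNMT3a siRNA against DNMT3b siRNA, 13 interferon-stimulated genes and 5 other heavy chains were called higher and 10 macrophage markers lower. There the block called 2513 of 16561 tested genes in either direction. For DNMT3a siRNA against negative siRNA the block changed no member's call. Over all genes, DNMT3a siRNA against negative siRNA called 1671, 946 from the compared groups alone, and 868 to 1839 with a library left out. DNMT3b siRNA against negative siRNA called 934, 1715 with DESeq2, 1801 with the replicate block, and 287 to 1781 with a library left out. DNMT3a siRNA against DNMT3b siRNA called 1582, 2513 with the replicate block, and 524 to 1962 with a library left out. The percent of calls that were higher was 48.3 for DNMT3a siRNA and 61.1 with library size alone, and 62.4 for DNMT3b siRNA and 51.3 with DESeq2. With a library left out it ran from 54.4 to 77.9 for DNMT3b siRNA, and from 34.6 to 50.1 against 46.8 for DNMT3a siRNA against DNMT3b siRNA. The cause of these shifts was not tested. Low counts, down to 10 reads for Psmb9 and Nlrc5, limit what can be read for these genes.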
